A study of Homo sapiens with 2 samples.

Results

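The E2F transcription factors E2F1 to E2F8 and their DNA-binding partners TFDP1 and TFDP2 were examined on a pair of oligonucleotide arrays. The cells were PC-3, an established androgen-independent prostate cancer line known to lack functional p53. The control array (siCONTROL) held RNA of cells transfected with a control short hairpin RNA (shRNA) expression vector, and the knockdown array (siSHISA2) that of cells with a vector against SHISA2, which encodes an endoplasmic reticulum protein known to hold back Frizzled and fibroblast growth factor receptors. There was 1 array per group. For the time of harvest, the number of cultures and whether cells were a pool or a clone, the sources used here give nothing. The members were all genes so named that have a probe set assigned to that gene alone, which gave 10 genes with 22 probe sets, of 19775 named genes on the array. E2F1 to E2F3 were taken as activators and E2F4 to E2F8 as repressors.

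E2F proteins bind the promoters of genes needed for DNA synthesis and cell division. The typical members pair with a DP protein to bind DNA. In resting cells the pocket proteins, which are the retinoblastoma protein and its relatives p107 and p130, hold typical E2F proteins in check, and phosphorylation by cyclin-dependent kinases releases them in late G1. PC-3 is known to keep the retinoblastoma protein.

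Several E2F genes are known to be E2F targets themselves, so the stretch before the start of 4 members is shown with the E2F words it holds. These are the 3 activators, whose brightest probe sets had ratios near 0, and E2F7, the member with the lowest ratio by that reading. RefSeq (assembly GRCh38.p14) gave a promoter window for 8 members, and the 250 bases before the start were searched on both strands. Capitals mark an 8-letter site (TTTCCCGC, TTTCGCGC, TTTGCCGC or TTTGGCGC, or the reverse complement), or, where only this matches, the same word without its first T (a 7-letter core, contained in the 8-letter site). Each sequence is upstream of the gene's start and reads in the direction of the gene.
E2F1 (chr20:33686386-33686635, minus strand): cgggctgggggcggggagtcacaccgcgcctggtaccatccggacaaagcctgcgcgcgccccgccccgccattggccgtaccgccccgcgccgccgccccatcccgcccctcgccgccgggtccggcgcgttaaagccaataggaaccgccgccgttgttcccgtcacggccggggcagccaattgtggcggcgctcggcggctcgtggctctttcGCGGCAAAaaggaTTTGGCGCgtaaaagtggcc
E2F2 (chr1:23531234-23531483, minus strand): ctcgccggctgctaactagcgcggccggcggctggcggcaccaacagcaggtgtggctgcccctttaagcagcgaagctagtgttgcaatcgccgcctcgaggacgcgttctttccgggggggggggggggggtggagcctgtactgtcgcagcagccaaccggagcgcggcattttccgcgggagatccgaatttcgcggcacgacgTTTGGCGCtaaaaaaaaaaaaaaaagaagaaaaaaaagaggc
E2F3 (chr6:20401629-20401878, plus strand): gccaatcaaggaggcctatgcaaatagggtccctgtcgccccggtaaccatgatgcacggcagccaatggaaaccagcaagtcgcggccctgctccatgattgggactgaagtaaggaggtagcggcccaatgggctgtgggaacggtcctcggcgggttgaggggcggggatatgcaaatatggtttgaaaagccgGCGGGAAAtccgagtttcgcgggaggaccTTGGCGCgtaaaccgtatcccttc
E2F7 (chr12:77065570-77065819, minus strand): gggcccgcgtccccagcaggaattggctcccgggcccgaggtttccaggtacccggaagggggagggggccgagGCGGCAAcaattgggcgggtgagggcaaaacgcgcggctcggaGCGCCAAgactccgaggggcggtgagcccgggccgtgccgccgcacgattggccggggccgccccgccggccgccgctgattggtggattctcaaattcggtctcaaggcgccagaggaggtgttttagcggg

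In E2F1 the 8-letter words began 33 and 20 bases before the start, and in E2F2 the word TTTGGCGC began 42 bases before it. E2F3 had an 8-letter word 53 bases and a 7-letter core 24 bases before the start shown, and its other listed start had neither form in its window. E2F7 had 7-letter cores 176 and 133 bases before the start and no 8-letter site. Of the other members TFDP1 had an 8-letter word 120 bases before its start, while the windows of E2F4, E2F6 and TFDP2 held neither form. By gene, 4 of the 8 members with a window had an 8-letter site and 5 a 7-letter core, against 3.40% and 13.0% of the 27305 genes with a window. Of all 35116 windows, 2.79% and 10.9% held them. A match describes letters and does not show that a factor binds there.

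The deposited values are probe-set intensities on a linear scale, called signals here. Median signals were 45.6 and 50.3 in the control and knockdown arrays. Signals under 47.9, the median of both arrays, are poorly measured and were raised to that floor, and probe sets above it in at least 1 array were called measured. This left 12931 measured genes, each read by its brightest measured probe set and given as the log2 ratio of knockdown over control. With 1 array per group there is no replicate error and no test. The yardstick used instead is technical. It takes the difference in log2 ratio between a gene's 2 brightest probe sets, and scales the SD of that difference to 1 probe set by dividing by root 2. It was 0.286 over 6428 genes, and 0.155 over 3088 genes with the floor raised to the 75th percentile of signals (387.3). The spread between cultures is not part of it. The only SHISA2 probe set had signals of 3536 (control) and 1506 (knockdown), or 42.6% of control. The epithelial keratins KRT8 and KRT18 were bright, with summed epithelial signals of 20999 and 19842, while CDH1 and KRT19 were under the floor. The androgen-regulated KLK3, which this line is known to express little of, read 242.3 and 251.0. Of other cell types, 3 of 8 leukocyte, 2 of 5 endothelial, 3 of 7 fibroblast and smooth muscle and 3 of 6 neuroendocrine markers were measured. Their summed signals in the control and knockdown arrays were 240.3 and 367.0, 294.8 and 411.5, 1121 and 925.4, and 575.1 and 445.6. PTPRC, VWF and CHGA were under the floor in both arrays, while CD79A (109.1 and 164.6), CDH5 (155.9 and 261.5), COL1A1 (787.2 and 577.0) and ENO2 (410.1 and 287.1) were above it. Their part in the results was not tested.

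All 10 genes were measured, on 19 of their 22 probe sets. By the brightest probe set no member was 2-fold or even 1.5-fold apart between the arrays. Over all 19 measured probe sets, 1 was at least 1.5-fold lower, the dim one of E2F1, and 0 were 1.5-fold higher. Over all measured genes the 2-fold size was reached by 0.565% on the lower and 0.920% on the higher side, and the 1.5-fold size by 3.77% and 5.01%. The counts behind the 2-fold shares were 73 lower and 119 higher, against 93 and 100 after quantile normalization, 100 and 94 after removal of a loess trend, and 132 and 78 after the array medians were set equal. Of the members 5 had a ratio below 0, where 47.8% of all measured genes did. Their median log2 ratio was 0.00, beside 0.01 over all measured genes. E2F5 and E2F7 were the 2 members at least 1.2-fold lower, a size reached by 15.6% of measured genes and by 10.4% of the 7650 genes with both signals above 387.3. In bulk RNA, fewer cells in a phase of the cycle and less RNA per cell cannot be told apart.

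**Figure D1:**
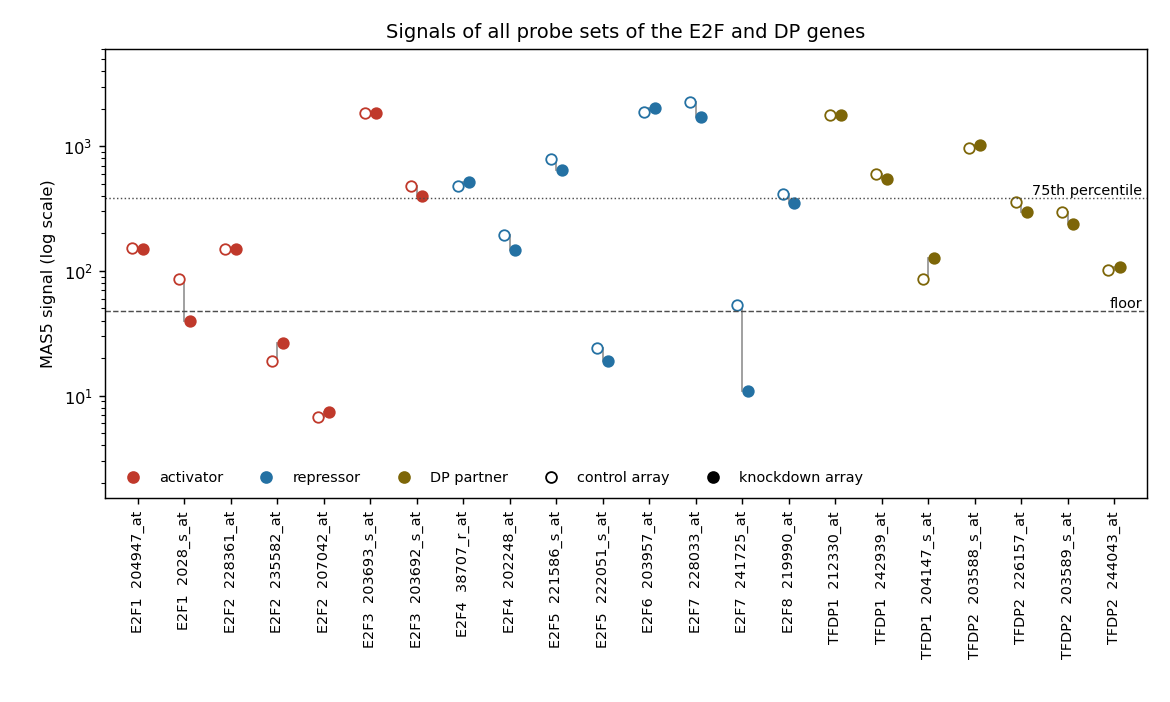
MAS5 signals (log scale) of all 22 probe sets of the 10 genes, open circles for the control array and filled circles for the knockdown array, coloured by class, with lines at the floor (47.9) and the 75th percentile (387.3). In most probe sets the circles lie side by side, and 3 probe sets lie under the floor in both arrays. Heights of different probe sets are not comparable as amounts of RNA.

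The activators drive entry into S phase and are held by the retinoblastoma protein. E2F1 is the founding member and also an inducer of cell death genes. Its brighter probe set had signals of 153.7 (control) and 150.5 (knockdown), a log2 ratio of -0.03, so the arrays were nearly level there. The other E2F1 probe set, of a kind that can share probes with other transcripts (_s_at), read 85.8 and 39.4. Its knockdown signal was under the floor, so it was at least 1.79-fold lower (log2 ratio -0.84 at the floor). The probe sets of E2F1 thus differed in size, and averaging them gave -0.44 in place of -0.03.

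E2F2, the activator known for its part in blood cells, was read by 1 measured probe set at 150.9 and 150.2 (log2 ratio -0.01). Its other probe sets, at 18.8 and 26.5 and at 6.7 and 7.4, were under the floor in both arrays. E2F3, the activator known to be amplified in bladder cancer, was bright at 1837 and 1841 (0.00). Its dimmer probe set, also of the shared kind, read 482.2 and 398.7 (-0.27). Neither probe set of E2F3 is assigned here to its long or short form. Every signal of E2F1 and E2F2 was under 387.3, and both E2F3 probe sets were above it in both arrays.

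Among the repressors, E2F4 and E2F5 are the typical members that act with p130 and p107 in resting cells. E2F4 read 482.4 and 516.8 on its brighter probe set (log2 ratio 0.10), which belongs to a kind (_r_at) designed under relaxed probe rules. Its other probe set read 193.7 and 147.8, which is 1.31-fold lower (-0.39). The direction for E2F4 therefore depended on the probe set. E2F5 read 790.7 and 650.1 (1.22-fold lower, -0.28) on a probe set of the shared kind, which is 1.83 times the yardstick over bright genes and just inside that over all genes. Its other one was under the floor at 24.0 and 18.8. E2F6, which works without pocket proteins inside a Polycomb complex, read 1866 and 2028 on its only probe set (0.12).

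E2F7 and E2F8 are the atypical repressors. They bind DNA through paired binding domains without a DP partner and shut down E2F targets late in S phase. E2F7 had signals of 2269 (control) and 1725 (knockdown), 1.32-fold lower (log2 ratio -0.40), which is 1.38 times the yardstick over all genes and 2.56 times that over bright genes. Its other probe set read 52.9 and 10.8, at least 1.10-fold lower from a control signal just above the floor. E2F8 read 412.5 and 350.2 on its only probe set (1.18-fold lower, -0.24), less than the yardstick over all genes. Both atypical members were thus lower by the brightest probe set. The dim E2F7 probe set passed the floor only in the control array, so its ratio could only be below 0 and adds nothing to this.

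TFDP1, the main DP partner, read 1778 and 1793 on its brightest probe set (0.01) and 598.5 and 543.8 on the next (-0.14). A dim probe set of the shared kind, at 85.8 and 128.1, was 1.49-fold higher (0.58), the highest value of any member probe set. TFDP2, the second partner, read 976.2 and 1022 on its brightest probe set (0.07). Its others read 356.0 and 296.4 (-0.26), 297.3 and 238.9 (-0.32), and 102.2 and 107.4 (0.07). Neither partner had 1 direction over its probe sets, and leaving out probe sets of the shared kind turned TFDP2 from 0.07 to -0.26. The related TFDP3 was under the floor at 1.6 and 7.6.

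**Figure D2:**
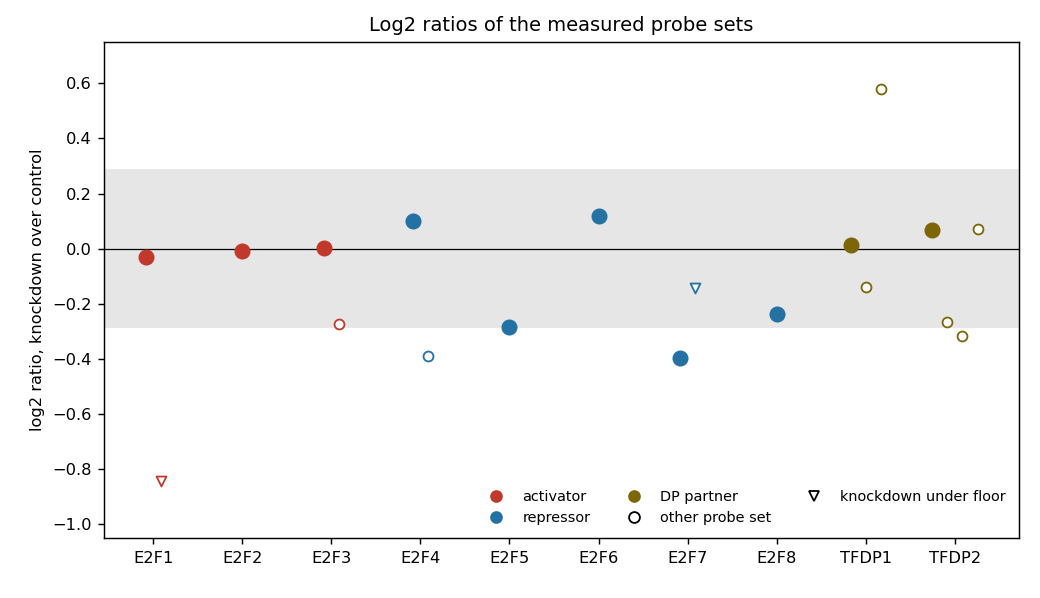
Log2 ratio of knockdown over control for each of the 19 measured probe sets. Large filled circles mark the probe set that stands for the gene, small open symbols the others, triangles those with a knockdown signal under the floor (bounds), and the grey band is the technical yardstick of 0.286 on either side of 0. Of the large circles only E2F7 (-0.40) lies outside the band, with E2F5 (-0.28) at its edge. Both exceed the yardstick of 0.155 for bright genes.

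Activators and repressors were compared by class. Signals of different probe sets depend on how well their probes bind, so the classes were set side by side by where their probe sets stood on the array and not by amount. Of the 7 activator probe sets 5 were measured and 2 had both signals above 387.3, both of them E2F3. Of the 8 repressor probe sets 7 were measured and 4 had both signals above it, 1 each for E2F4, E2F5, E2F6 and E2F7. All 7 DP probe sets were measured, 3 of them with both signals that bright.

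By log2 ratio, the activator median was -0.01, with single genes from -0.03 to 0.00. The repressor median was -0.24, with single genes from -0.40 to 0.12, and the activator median minus the repressor median was 0.23. The repressors lay on both sides of the activators, 3 lower (E2F5, E2F7, E2F8) and 2 higher (E2F4, E2F6), so the classes overlapped. Within the repressors, the typical members E2F4 to E2F6 had a median of 0.10 and the atypical E2F7 and E2F8 one of -0.32. That 0.10 is the value of E2F4 on its brighter probe set, and its other one read -0.39. With averaged probe sets E2F4 was at -0.15, E2F5 at -0.28 and E2F6 at 0.12, beside -0.27 for E2F7 and -0.24 for E2F8. No error can be given for the difference between activators and repressors, since the classes hold few genes and each group 1 array. It was 0.05 without probe sets of the shared kind, which removed E2F3 and E2F5, and 0.10 with averaged probe sets, which took the activator median to -0.14. Counted by probe set, 4 of 5 measured activator and 5 of 7 repressor probe sets were below 0, as were 47.9% of all measured named probe sets. In each class 1 of those below 0, the dim one of E2F1 and that of E2F7, passed the floor only in the control array. Their sign was therefore fixed in advance.

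**Figure D3:**
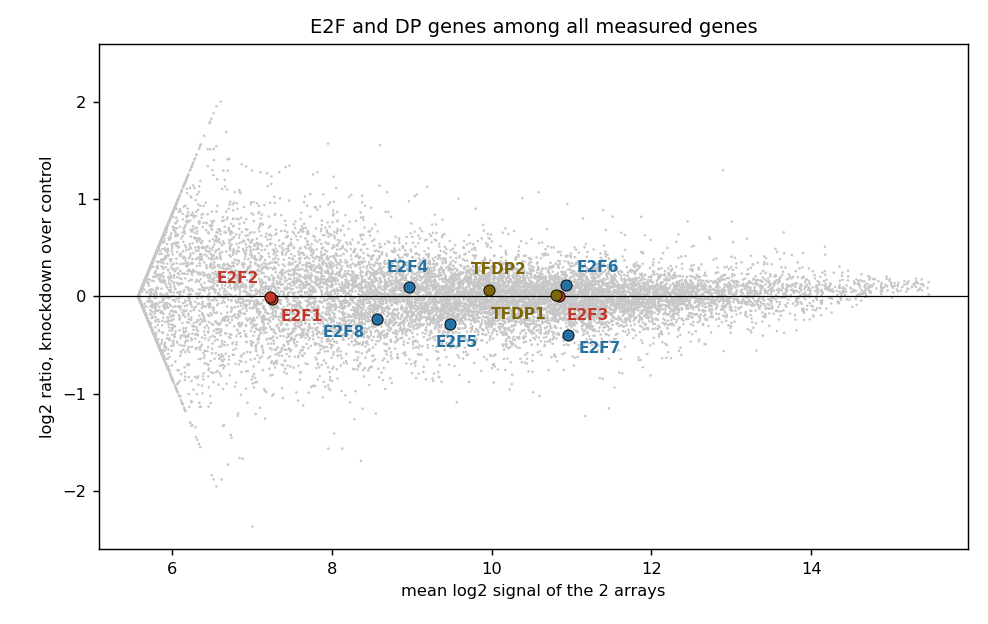
Log2 ratio of knockdown over control against mean log2 signal for all 12931 measured genes (grey), with the 10 E2F and DP genes coloured by class (red activators, blue repressors, brown DP partners). E2F1 and E2F2 are the dimmest of the members. E2F3, E2F6, E2F7 and TFDP1 stand among bright genes, where grey points spread less, and E2F7 has the lowest ratio of the members.

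The genes that control E2F proteins or are controlled by them were taken from 9 lists of 111 genes, and their values stand beside those of the members. For each count of genes below 0, the share over all measured genes was 47.8%. Of the pocket proteins, the retinoblastoma gene RB1 read 4358 and 4039 (log2 ratio -0.11 on both probe sets). RBL2, encoding p130, read 3803 and 3559 (-0.10, and -0.65 on the other). RBL1, encoding p107 and itself an E2F target, read 341.8 and 224.4, 1.52-fold lower (-0.61, and -0.12 on the other). All 3 pocket genes had ratios below 0, and RBL1 stood below every E2F and DP gene.

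Upstream of the pocket proteins, 7 of 8 G1 cyclin and kinase genes were below 0, with a median of -0.18. Cyclin D1, CCND1, was the exception at 0.03, and CCND2 was lowest at -0.71, on dim signals of 128.0 and 78.4 and with probe sets from -0.71 to 0.22. CDK2 and CDK6 also had a probe set above 0, at 0.20 and 0.30. With averaged probe sets 5 of the 8 genes were below 0. The kinase CDK4 read 3260 and 2775 (-0.23) and the cyclin CCNE2 944.9 and 776.0 (-0.28). Of the inhibitors of these kinases 6 of 7 were measured, with a median of 0.17 and 4 above 0. CDKN2B, an inhibitor of CDK4 and CDK6, read 942.6 and 1899 (1.01), CDKN2A, which shares its locus and its kinases, 7621 and 11503 (0.59), and CDKN1A, the inhibitor p21, 3144 and 3956 (0.33). The other gene above 0, CDKN2D, was level at 160.5 and 160.6 (0.00). CDKN1B, the inhibitor p27, was on the other side of 0 at -0.19, and CDKN1C at -0.06, with probe sets from -0.64 to 0.45. With quantile normalization, a loess trend removed or the array medians set equal, 3 of the 6 were above 0. CDKN2B was the only gene of the 9 lists that was at least 2-fold apart.

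Typical repressor E2F proteins, DP and p130 or p107 join the MuvB core to form the DREAM complex, and the same core later binds B-MYB and FOXM1. Of these 8 genes 7 were below 0, with a median of -0.25. MYBL2, the gene of B-MYB and an E2F target, read 394.8 and 265.0 (-0.58), FOXM1 613.5 and 500.0 (-0.30), LIN9 444.6 and 341.9 (-0.38), and LIN54, which contacts DNA, 105.1 and 68.9 (-0.61, dim). LIN37 was the exception at 0.15. Of the genes for E2F turnover, CCNF, encoding cyclin F, read -0.40 (0.10 on its other probe set) and SKP2 -0.13. FZR1 read 0.12, the highest of its 4 probe sets, which ran down to -0.37.

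The Polycomb complex PRC1.6 that holds E2F6 had 9 of 10 genes measured, all with both signals above 387.3. By the brightest probe sets their median was 0.05, with 5 above 0 and a range from -0.12 (MGA, the scaffold) to 0.19 (YAF2). E2F6 at 0.12 lay inside that range. Other probe sets of these genes ran wider, up to 0.80 for MAX and down to -0.34 for RYBP. With averaged probe sets 7 of the 9 genes were above 0. The sign of the list median turned with the array medians set equal (-0.09), a scaling that moved the median of all genes from 0.01 to -0.12.

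Most downstream genes were lower in the knockdown array. In the list of G1/S targets of E2F, 34 of 36 measured genes were below 0 with a median of -0.25, and 17 were at least 1.2-fold lower (15.6% of all measured genes were). ORC1, the largest origin-recognition subunit, had the lowest ratio at 289.3 and 173.5 (1.67-fold lower, -0.74). CDC45 read 365.4 and 230.4 (-0.67) and GINS1 2140 and 1387 (-0.63), both parts of the replicative helicase. POLE2, of DNA polymerase epsilon, read 686.7 and 453.5 (-0.60). RBL1 and MYBL2, named above, completed the 6 lowest. The uracil glycosylase UNG (0.01) and the histone mRNA binding protein SLBP (0.11) were the 2 genes above 0 by the brightest probe set. With averaged probe sets 31 of the 36 were below 0 and 5 above, with a median of -0.33. By the brightest probe sets the repressor median (-0.24, the value of E2F8) was close to the median of these targets. The activator median (-0.01) was close to that of all genes (0.01), and neither difference was tested. Neither match held in every setting. Without probe sets of the shared kind the repressor median was -0.07 and that of these targets -0.26. With averaged probe sets the activator median was -0.14 and that of all genes 0.02.

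In the list of G2/M targets of DREAM and of the B-MYB and FOXM1 complex, all 25 measured genes were below 0 under every scaling tried, with a median of -0.43. The 1.2-fold size was reached by 22 of them and the 1.5-fold size by 6, beside 15.6% and 3.77% of all measured genes. The kinesin KIF11 read 1804 and 1187 (-0.60) and the topoisomerase TOP2A 6538 and 4310 (-0.60, with probe sets from -0.60 to -0.20). KIF23 (-0.68), CDC25C (-0.67, with 0.27 on its other probe set), CCNA2 (-0.62) and PLK1 (-0.62) were the others among the 6 lowest. Cell cycle genes were already known to be lower in the knockdown array when these lists were chosen, so their counts are no independent support. By the brightest probe set all 10 E2F and DP genes were above the median of these G2/M genes, with E2F7 (-0.40) nearest to it. With averaged probe sets E2F1 (-0.44) was below that median (then -0.42).

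Genes of cell death that E2F1 is known to induce had no common direction. Of 12, 9 were measured, 6 above 0 and 3 below, with a median of 0.02. TP73, a p53 relative, was lowest at -0.83 on dim signals of 99.0 and 55.7, and APAF1, the apoptosome scaffold, read 1027 and 678.7 (-0.60, with probe sets up to 0.29). HRK, a death-promoting BCL2 relative, read 146.3 and 238.3 (0.70, with -0.08 on its other probe set) and PMAIP1, of the same group, 13080 and 17809 (0.45). CASP9, the initiator caspase of the apoptosome, was at 0.24 and CASP8, that of the death receptors, at 0.02. TP53BP2, encoding a p53-binding protein, read -0.01.

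**Figure D4:**
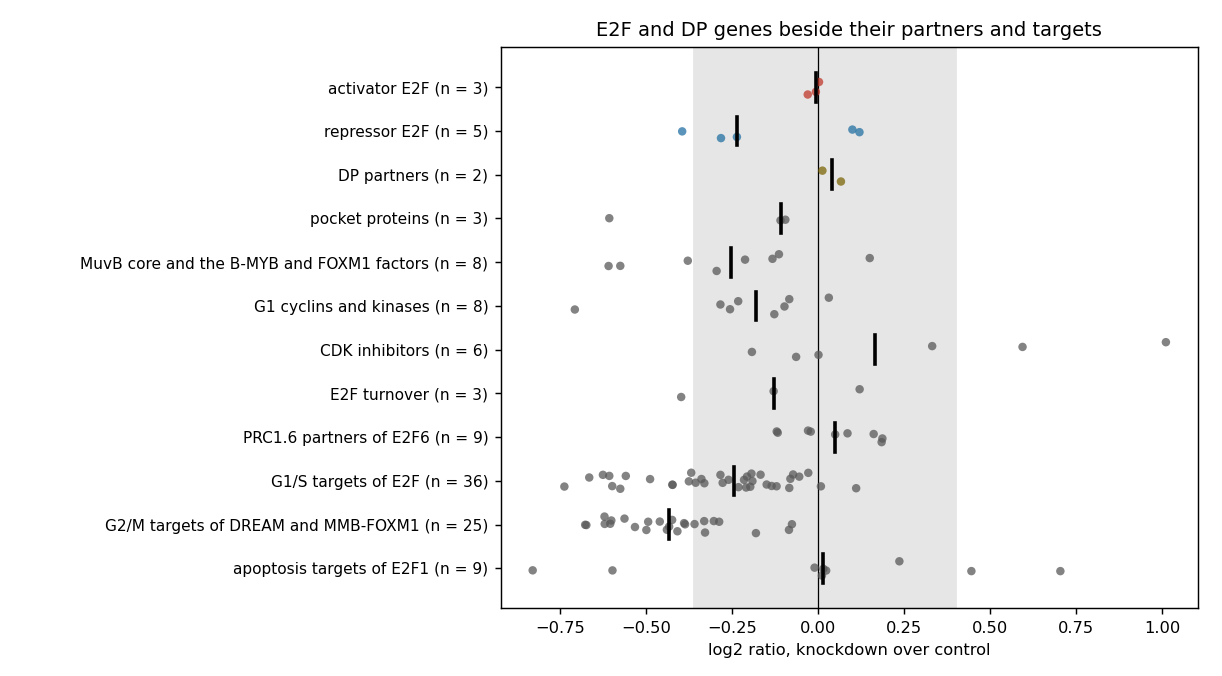
Log2 ratio of knockdown over control for each measured gene (points, spread vertically at random) of the E2F classes and of the 9 related lists, with the list median as a black bar and, in grey, the range between the 10th and 90th percentile of all measured genes (-0.36 to 0.40). The activators cluster at 0, the repressors lie on both sides of them, and the G1/S (-0.25) and G2/M (-0.43) target lists have medians below 0.

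Across the processing settings, E2F7, E2F8, E2F5, E2F1 and E2F2 stayed below 0 in every setting that measured them. The range was from -0.54 to -0.27 for E2F7, from -0.38 to -0.09 for E2F8 and from -0.42 to -0.27 for E2F5. E2F1 ran from -0.44 to -0.03 and E2F2 from -0.15 to -0.01. Both thus came close to level, and several settings left their values unchanged. E2F3, E2F4, E2F6, TFDP1 and TFDP2 changed sign in at least 1 setting. The repressor median stayed below 0 in all of them, from -0.38 to -0.07, and the activator median ran from -0.15 to 0.00.

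**Figure D5:**
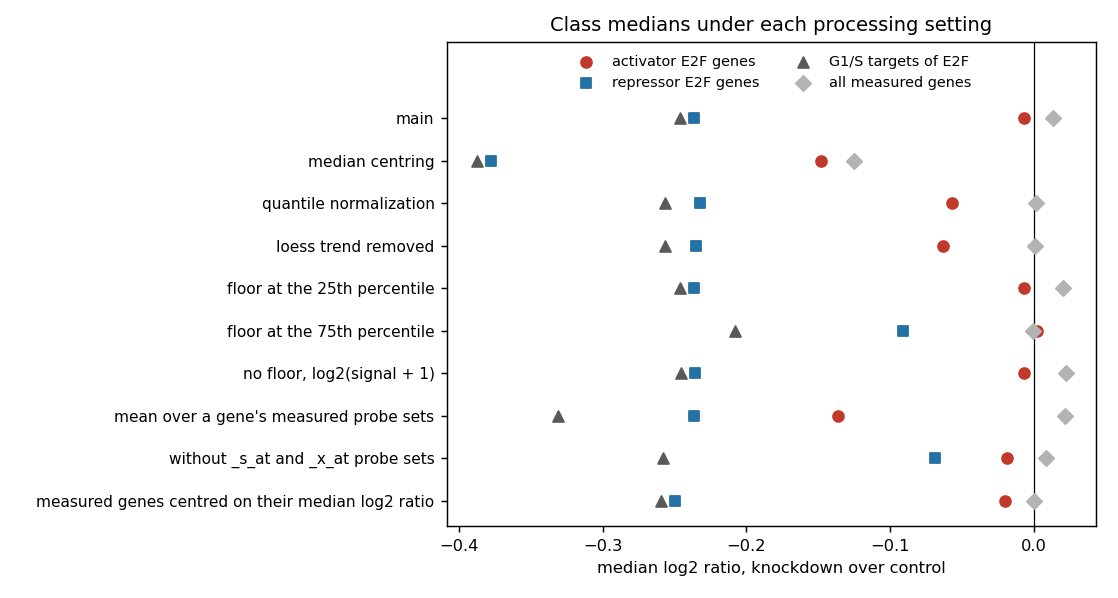
Median log2 ratio of knockdown over control for the activator and repressor E2F genes, the G1/S targets of E2F and all measured genes under each processing setting. The repressor median is below the activator median in every setting, by 0.05 to 0.23, and all medians shift together when the array medians are set equal. The genes behind these medians differ between settings. With the floor at the 75th percentile E2F3 is the only activator measured, and the repressor median is a bound from E2F8. Leaving out _s_at and _x_at probe sets removes E2F3 and E2F5.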

How the data were processed

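Expression was measured on 2 arrays of biotin-labelled RNA, 1 per group, grouped by sample title. The intensities deposited by the authors are linear probe-set signals. The submitters' processing notes name MAS5 for this. Its version and the build are not given in the sources used here, and no genome position of a probe set is printed. The method subtracts mismatch from perfect-match probes, so signals near background are noisy. Mean signals after trimming 2% at each end were equal (500.1 in both arrays), and no further scaling was applied. Of 54675 probe sets 62 were controls. The annotation used gave 41097 of them 1 gene symbol and 1801 several, 11777 were not listed, and probe sets with several genes were left out. Of those with 1 symbol, 41043 matched RefSeq (GRCh38.p14) by gene identifier.

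Ratios were computed in Python 3.11.15 with pandas 2.3.3 and NumPy 2.4.6, and the loess trend (span 0.3) with statsmodels 0.14.6. The procedure was tested on a simulated pair of arrays. The signal precision is limited by the number of arrays, and p-values were not computed. Members and lists were chosen with earlier results of these data known. The rule for names was all members and SHISA2, any gene of lists of up to 10 genes, and of longer lists the 6 largest ratios and genes on the other side of 0 from the list median. Alternatives were 3 scalings, floors at the 25th (11.3) and 75th percentile, a pseudocount of 1 without a floor, averaged probe sets, and no _s_at or _x_at probe sets. Centring on the median ratio of measured genes and the 1.2-fold size were added after the data were seen. Probe and protein sequences were not used here.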

Additional observations from a re-analysis of the deposited data

How the results depend on the processing

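No paired analysis was possible because each group has 1 array, and for the same reason none could be left out. Members below 0 numbered 5 of 10 as reported, 10 with the array medians set equal (where 70.2% of all measured genes were below 0), 3 of 8 with the floor at the 75th percentile, which left E2F1 and E2F2 unmeasured, 8 with averaged probe sets, and 7 when measured genes were centred on their median ratio. Without _s_at and _x_at probe sets the repressor median was -0.068 in place of -0.24 and the difference between classes 0.050 in place of 0.23. Averaging also took the pocket protein median to -0.36, and the floor at the 75th percentile took the median of the 4 CDK inhibitors it left to 0.46. The numbers of genes at least 2-fold lower and higher were 132 and 78 with the array medians set equal, 974 and 1400 with the floor at the 25th percentile, 4 and 5 with it at the 75th, and 1706 and 2149 with no floor. More genes are then read at low signals, or fewer. Over the alternatives the median of the G1/S targets ran from -0.39 to -0.21 and that of the G2/M targets from -0.57 to -0.42. Low signals limit E2F1 and E2F2 most.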

Other observations

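Genes with an E2F word before their start were also compared with the rest, outside the lists. With the members and all listed genes left out, 1457 genes with both signals above 387.3 held a 7-letter E2F core in the 250 bases before a start and 4952 did not. Their median log2 ratios were -0.01 and 0.00, and 10.5% and 9.75% were at least 1.2-fold lower. For the 8-letter site the shares were 11.8% of 382 and 9.81% of 6027 genes. Within the G1/S target list, 20 genes with a core had a median of -0.25 and 13 without one had -0.21. The 8-letter site gave the opposite order there, with -0.22 over 14 genes that held it and -0.28 over 19 that did not.

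The CHR, a word that the MuvB subunit LIN54 is known to bind in G2/M promoters, was searched as TTTGAA or TTCGAA on both strands of the same bases. It was held by 17.2% of the 27305 genes with a window and by 14.3% of all windows. Of the 20 measured G2/M targets with a window, the median log2 ratio was -0.58 over 10 with a CHR word and -0.37 over 10 without one. Outside the lists and members, 12.8% of 906 bright genes with the word and 9.45% of 5503 without it were at least 1.2-fold lower. These are descriptions of 1 pair of arrays, and no difference was tested.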
